A study of Bos taurus with 8 samples.

Results

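NANOG and POU5F1, 2 of the 18824 gene symbols in the deposited table of normalized abundance, were followed through single cells of cattle (Bos taurus) embryos. Both genes were taken by name and read in every class and library. The cells came from 6 wildtype libraries (replicates 1 to 6), all labelled as pools of morulae and blastocysts of days 6, 7, 8 and 9 after fertilization. In the deposited cells no library held all 4 days: replicates 4 and 6 held Morula and EB cells, and replicates 1, 2, 3 and 5 held day 8 and day 9 classes, with 2 EB cells in replicate 1. The 2 libraries of day 6 morulae, injected as zygotes with BE3 mRNA and SOX2 sgRNAs or with BE3 mRNA alone, are not analysed here, so no gene was perturbed in the cells described. The deposited cell annotation gives 7 classes: Morula on day 6 (58 cells), EB on day 7 (39), MB TE (37) and MB ICM (51) on day 8, and LB PE (25), LB TE (31) and LB EPI (45) on day 9. TE, ICM, PE and EPI are the usual abbreviations of trophectoderm, inner cell mass, primitive endoderm and epiblast.

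NANOG, a homeodomain protein, and POU5F1, the POU-domain factor also called OCT4, are transcription factors of the pluripotent cells of the mammalian embryo. Together with SOX2 they bind many of the same enhancers and keep cells of the inner cell mass and epiblast undifferentiated. The trophectoderm is the outer epithelium that forms the placenta, and the primitive endoderm, or hypoblast, lines the yolk sac. In mice, NANOG and GATA6 end up in separate inner cells that become epiblast and primitive endoderm. In cattle, POU5F1 is known to persist in the trophectoderm of the blastocyst, where mouse embryos have switched it off.

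A level is given in CPM, the reads of a gene per 1000000 reads of the cell, averaged over the cells that a library held of a class. An average needed at least 3 cells, which left 16 averages: 3 each of MB TE, MB ICM and LB EPI, 2 each of Morula, LB PE and LB TE, and 1 of EB. NANOG reached 10 CPM in 14 of the 16 averages and POU5F1 in 16, so both passed the filter on low values. The cells held 2633 to 747345 reads, with a median of 150770.5, and LB PE cells were the shallowest, with a median of 39210. All 48 cell barcodes recur in at least 2 libraries, so cells were identified by library and barcode. The method behind the class labels is not stated in the labels or files, and NANOG or POU5F1 may have helped to name them. The TE labels fitted their markers: 12 trophectoderm genes summed to 31500 to 59076 CPM in MB TE and 34501 to 44580 in LB TE, against 1690 to 6822 in the other day 8 and 9 classes. The hypoblast list summed to 5929 to 6338 CPM in LB PE and 830.3 to 1018 in LB EPI, although its member SOX17 was listed at 0 in both. It was not particular to LB PE, since it summed to 4072 to 4423 CPM in MB ICM and 3293 in EB. The labels do not say from how many embryos a library came, and p-values therefore speak only of the spread among these libraries.

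NANOG was low in Morula, EB and MB TE, higher in MB ICM and highest in LB EPI. In the morulae it stood at 9.99 CPM in replicate 4 and 21.9 in replicate 6. EB, with 35 cells of replicate 4, had 7.42 CPM. MB TE had 11.8, 19.6 and 13.5 CPM in replicates 1, 2 and 3, while MB ICM had 129.5, 129.5 and 202.9 in replicates 1, 2 and 5. These 2 day 8 classes did not overlap. On day 9, LB PE had 167.5 and 128.4 CPM and LB TE 22.1 and 82.9, each in replicates 3 and 5. LB EPI had 718.3, 914.9 and 1211 CPM in replicates 2, 3 and 5, above every other average.

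In order of their means, NANOG ran from LB EPI (948.2 ± 248 CPM, SD, n = 3 libraries) through MB ICM (153.9 ± 42.4, n = 3), LB PE (148.0 ± 27.7, n = 2), LB TE (52.5 ± 43.0, n = 2), Morula (16.0 ± 8.44, n = 2) and MB TE (14.98 ± 4.12, n = 3) to EB (7.42, n = 1). The neighbours MB ICM and LB PE overlapped, as did Morula and MB TE. LB TE and Morula were separated by little, since the lowest LB TE library had 22.1 CPM and the highest Morula library 21.9.

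POU5F1 was present in every class and lowest in the day 9 trophectoderm. Morulae had 125.9 and 110.8 CPM in replicates 4 and 6, and EB had 139.5. MB TE had 139.7, 106.3 and 96.0 CPM in replicates 1, 2 and 3, a range that covers the upper and lower Morula values. MB ICM had 173.7, 223.6 and 327.1 in replicates 1, 2 and 5, with no overlap with MB TE. On day 9, LB PE had 162.3 and 98.8 CPM in replicates 3 and 5, LB TE 26.3 and 45.6 in the same libraries, and LB EPI 370.1, 308.7 and 220.8 in replicates 2, 3 and 5.

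The order of POU5F1 means was LB EPI (299.8 ± 75.02 CPM, SD, n = 3), MB ICM (241.5 ± 78.2, n = 3), EB (139.5, n = 1), LB PE (130.5 ± 44.9, n = 2), Morula (118.4 ± 10.7, n = 2), MB TE (114.0 ± 22.8, n = 3) and LB TE (35.9 ± 13.6, n = 2). LB EPI overlapped with MB ICM, EB with LB PE, LB PE with Morula, and Morula with MB TE. MB ICM lay above EB, and LB TE below MB TE, without overlap.

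The highest of these MB ICM values needs care. Replicate 5 held 5 MB ICM cells, and 1 of them had 1139 CPM of POU5F1, against 194.0 in the next highest. That cell had 2633 reads in all, 3 of them from POU5F1. The averages were repeated with cells of at least 20000 reads, a limit chosen after this cell was seen. MB TE, which has no shallower cell, then stood at 139.7, 106.3 and 96.0 CPM of POU5F1 in replicates 1, 2 and 3, against 167.2, 222.4 and 124.0 in MB ICM of replicates 1, 2 and 5, and the classes overlapped. For NANOG they did not overlap, at 11.8, 19.6 and 13.5 CPM in MB TE against 111.3, 111.1 and 158.6 in MB ICM.

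**Figure D1:**
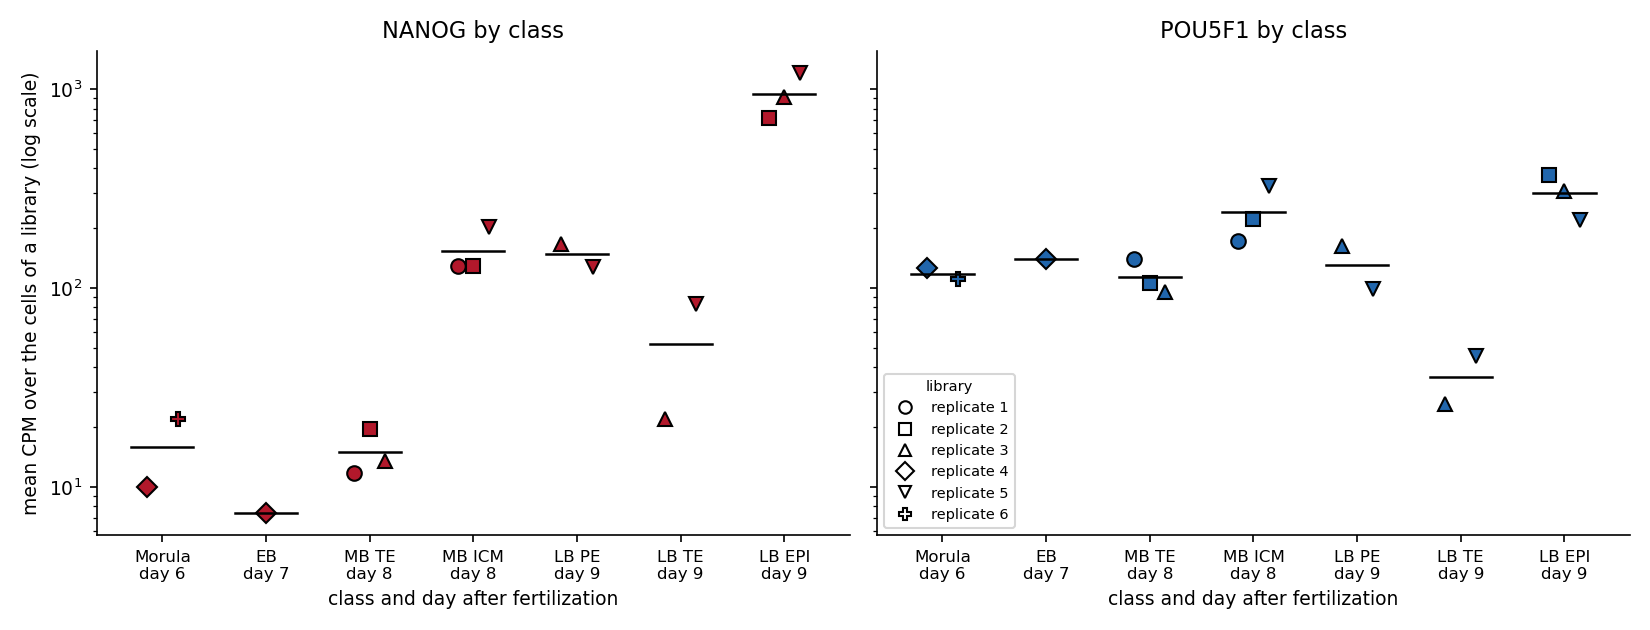
Mean CPM of NANOG (left) and POU5F1 (right) in each class, on a log axis. Each symbol is 1 library average of at least 3 cells and the line is the mean of the libraries; NANOG spans 7.42 to 1211 CPM with LB EPI above all other averages, and POU5F1 spans 26.3 to 370.1 CPM with LB TE below them.

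Differences between classes were tested with limma on log2(CPM + 10) over all 12539 genes that passed the filter, with the library as a random block and Benjamini-Hochberg adjustment. A log2 change is on that scale, which understates the change of low values. On day 8 the trophectoderm was set against the inner cell mass, a comparison in which 10.1% of all tested genes were called. NANOG was lower in MB TE by a log2 change of -2.61 (SE 0.34, adjusted p = 2.39e-05), with -2.68 and -2.24 inside replicates 1 and 2, the libraries holding both classes. POU5F1 was lower by -0.98 (SE 0.30, adjusted p = 0.0385), with -0.30 and -1.01 inside the same libraries. With cells of at least 20000 reads the POU5F1 change was -0.56 and missed the threshold (adjusted p = 0.211), whereas NANOG stayed at -2.37 (adjusted p = 1.71e-05). The POU5F1 call was also lost without replicate 2, 3 or 5 (adjusted p = 0.187, 0.128 and 0.111).

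On day 9 both genes were much lower in trophectoderm than in epiblast. LB TE fell below LB EPI by a log2 change of -4.13 for NANOG (SE 0.37, adjusted p = 2.99e-07) and -2.75 for POU5F1 (SE 0.33, adjusted p = 7.83e-06), in a comparison that called 15.2% of all genes. Within replicates 3 and 5 the change was -4.85 and -3.72 for NANOG and -3.13 and -2.05 for POU5F1. Both calls held under all 16 alternatives. In single cells, 30 of 31 LB TE cells had less NANOG than any of the 45 LB EPI cells, and 26 of 31 had less POU5F1 than any of them.

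Whether the step between the lineages differed between the days was tested directly. The difference between LB TE and LB EPI minus that between MB TE and MB ICM was -1.76 for POU5F1 (SE 0.45, adjusted p = 0.103) and -1.52 for NANOG (SE 0.50, adjusted p = 0.231). Neither passed the threshold, in a test that called 0.367% of all genes. With cells of at least 20000 reads the POU5F1 value was -2.14 and passed it (adjusted p = 0.0121), while NANOG was at -1.80 (adjusted p = 0.0738) and passed under 1 of the 16 alternatives. POU5F1 passed under 4 of the 16 alternatives in all, with adjusted p from 0.0121 to 0.587.

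The trophectoderm of day 9 was also set against that of day 8. POU5F1 was at 26.3 and 45.6 CPM in LB TE against 139.7, 106.3 and 96.0 in MB TE, without overlap, and its log2 change of -1.45 (SE 0.34) missed the threshold (adjusted p = 0.102). NANOG moved the other way, at 22.1 and 82.9 CPM in LB TE against 11.8, 19.6 and 13.5 in MB TE, and its change of 1.03 (SE 0.38) missed it too (adjusted p = 0.602). This comparison called 0.191% of all genes, and the 1 library with both classes, replicate 3, had changes of -1.54 for POU5F1 and 0.45 for NANOG.

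The library averages of both factors in the primitive endoderm of day 9 lay between those of LB TE and LB EPI. Against LB EPI, NANOG was lower in LB PE by -2.61 (SE 0.37, adjusted p = 0.000218) and POU5F1 by -1.14 (SE 0.33, adjusted p = 0.0479), where 5.39% of all genes were called. The NANOG call held under all 16 alternatives. That of POU5F1 held under 6 of them, with adjusted p from 0.0145 to 0.494, and was lost when any library was left out. Against LB TE, LB PE had more NANOG by 1.52 (SE 0.40, adjusted p = 0.0263) and POU5F1 by 1.61 (SE 0.36, adjusted p = 0.00854), with 5.85% of all genes called. Inside replicates 3 and 5 the change was 2.47 and 0.57 for NANOG and 2.25 and 0.97 for POU5F1, so replicate 3 carried more of it. In replicate 5 the median NANOG value of single cells was 62.3 CPM in LB PE and 75.8 in LB TE. With cells of at least 20000 reads, the NANOG averages of replicate 5 were 89.5 CPM in LB PE and 82.9 in LB TE. Without replicate 3, NANOG stood at 0.57 (adjusted p = 0.590) and POU5F1 at 0.97 (adjusted p = 0.287), and without replicate 2 the NANOG call was lost as well (adjusted p = 0.0515).

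Between day 8 inner cell mass and day 9 epiblast the members moved differently. NANOG was higher in LB EPI than in MB ICM by 2.55 (SE 0.34, adjusted p = 0.000144), with 2.38 and 2.52 inside replicates 2 and 5, and held under all 16 alternatives. POU5F1 changed by 0.32 (SE 0.30, adjusted p = 0.682), with 0.70 and -0.55 inside those libraries, and passed under none. This comparison called 5.1% of all genes. Between MB ICM and the other inner class of day 9, 0.702% were called. Here NANOG in LB PE differed from MB ICM by -0.06 (SE 0.38, adjusted p = 0.984) and POU5F1 by -0.82 (SE 0.34, adjusted p = 0.311).

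For the earlier steps EB has a single average, which is assumed to vary like the other classes, and no library held averages of both EB and a day 8 class, which leaves age and library confounded: the 2 cannot be told apart. NANOG was higher in MB ICM than in EB by 3.12 (SE 0.51, adjusted p = 0.00608), where 0.175% of all genes were called, and limma-voom did not call it (4.24, adjusted p = 0.102). POU5F1 changed by 0.72 (SE 0.45, adjusted p = 0.792). MB TE differed from EB by 0.51 for NANOG (SE 0.51, adjusted p = 0.845) and -0.27 for POU5F1 (SE 0.45, adjusted p = 0.958), with 0.997% of all genes called. The median change of all genes was -0.12 in MB ICM and -0.14 in MB TE against EB, and 0.01 and -0.01 after median-of-ratios scaling. In EB against Morula, NANOG changed by -0.48 (SE 0.51) and POU5F1 by 0.21 (SE 0.45), both with adjusted p = 1, where 0.0798% of all genes were called. The 2 Morula libraries differed in cumulus and granulosa genes, which summed to 10.4 CPM in one and 1008 in the other. They also differed in oocyte genes (11.3 and 437.1 CPM) and fibroblast genes (64.5 and 651.2 CPM). The fibroblast list spread as widely in later classes, from 125.9 to 704.2 CPM over MB ICM libraries and from 274.7 to 1102 over LB PE libraries. The part of these lists in the values was not tested.

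**Figure D2:**
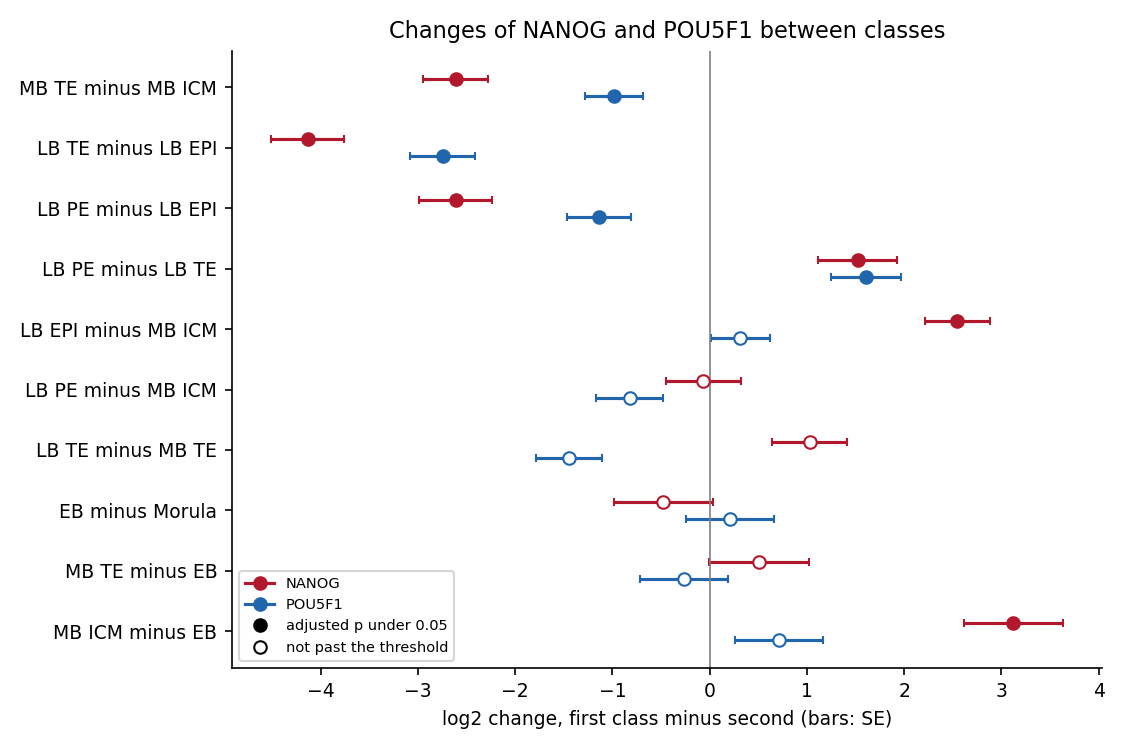
Log2 change of NANOG (red) and POU5F1 (blue) in 10 comparisons, each the first class minus the second, with bars of 1 SE from limma; filled points passed an adjusted p of 0.05. NANOG lies furthest from 0 in LB TE minus LB EPI (-4.13), and POU5F1 near 0 in LB EPI minus MB ICM (0.32) where NANOG is at 2.55.

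Because the members moved by different amounts, their ratio changed between classes. The log2 of POU5F1 over NANOG was taken per library. Its zero has no meaning, since transcript lengths were not used, and only changes of the ratio between classes are read. It stood at 2.77 and 1.92 in Morula, 3.10 in EB, and 2.78, 1.97 and 2.17 in MB TE, against 0.40, 0.74 and 0.66 in MB ICM. On day 9 it was -0.04 and -0.35 in LB PE and 0.18 and -0.74 in LB TE, against -0.94, -1.54 and -2.40 in LB EPI. The morula, EB and day 8 trophectoderm libraries thus all lay above the inner cell mass, and the epiblast libraries lay below the rest.

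The ratio was higher in MB TE than in MB ICM by 1.71, and lower in LB EPI than in MB ICM by a log2 difference of -2.23, each with an exact two-sided permutation p = 0.1, the smallest that 3 libraries against 3 allow. On day 9 it was higher by 1.43 in LB PE and by 1.34 in LB TE than in LB EPI, each with an exact permutation p = 0.2, the smallest that 2 against 3 allow. These designs cannot reach 0.05. The permutations also treated the averages as independent, although some libraries gave averages of both classes compared. The 4 differences kept their direction under every alternative that could be computed.

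**Figure D3:**
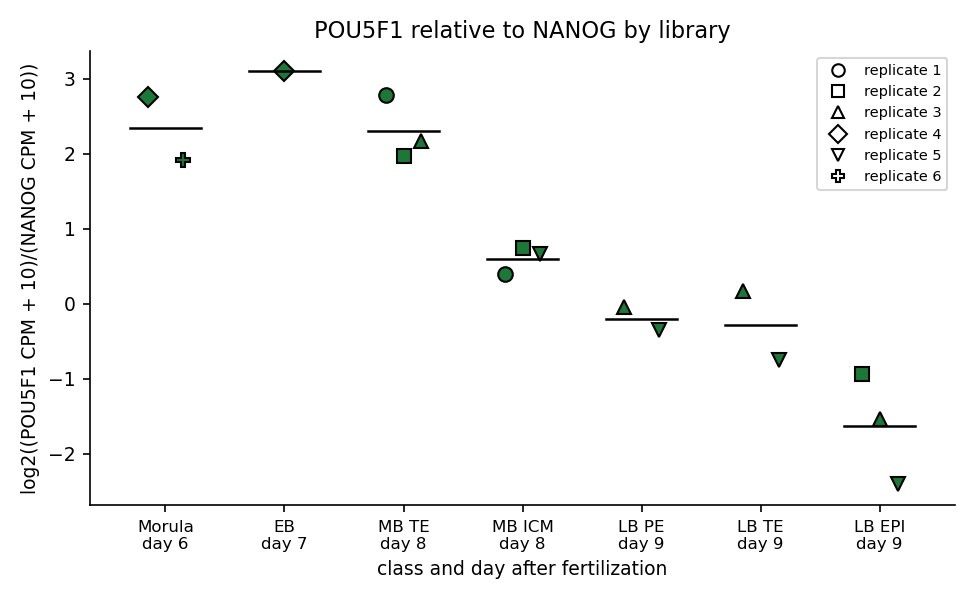
Log2 ratio of POU5F1 to NANOG CPM, each with 10 added, in every class. Symbols are libraries and lines the class means; the ratio is highest in EB (3.10), near 0.60 in MB ICM and lowest in LB EPI (mean -1.63).

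Joint detection was counted in single cells. Across all 286 cells, 190 had reads of both genes, 84 of POU5F1 only, 5 of NANOG only and 7 of neither. With all reads, NANOG without POU5F1 was therefore rare in every class, where POU5F1 was detected in 274 of the 286 cells. It was seen in 2 of 58 Morula, 0 of 39 EB, 0 of 37 MB TE and 0 of 51 MB ICM cells. On day 9 it was seen in 1 of 25 LB PE, 2 of 31 LB TE and 0 of 45 LB EPI cells. Both were detected in 15 of 58 Morula cells, which is 25.9% (exact 95% interval 15.3 to 39.0%), and in 9 of 39 EB cells (23.1%, 11.1 to 39.3%). On day 8 they were together in 29 of 37 MB TE cells (78.4%, 61.8 to 90.2%) and 44 of 51 MB ICM cells (86.3%, 73.7 to 94.3%). On day 9 they were together in 22 of 25 LB PE cells (88.0%, 68.8 to 97.5%), 26 of 31 LB TE cells (83.9%, 66.3 to 94.5%) and 45 of 45 LB EPI cells (100%, 92.1 to 100%). The intervals are Clopper-Pearson and cover counting error only.

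These shares follow depth, so each cell was also thinned to 20000 reads, which left out 22 shallower cells: 8 Morula, 3 EB, 0 MB TE, 4 MB ICM, 5 LB PE, 0 LB TE and 2 LB EPI. Both genes then remained in 9.04% of Morula, 9.71% of EB and 18.8% of MB TE cells, against 62.2% of MB ICM cells. On day 9 the share was 65.1% in LB PE and 21.4% in LB TE, against 98.7% in LB EPI. The LB TE share was 42.5% without replicate 3 and 11.4% without replicate 5, and the EB share rests on replicate 4, which held 35 of the 39 cells. Pooled over libraries, thinning thus separated trophectoderm and inner cells that looked alike with all reads. Between LB TE and LB PE this rested mostly on replicate 3, with 11.4% and 72.2%, against 46.0% and 60.7% in replicate 5. NANOG alone was detected in 77.5% of LB TE and 73.2% of LB PE cells of replicate 5.

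Taken singly at this depth, NANOG was detected in 13.6% of Morula, 10.6% of EB, 24.2% of MB TE and 66.3% of MB ICM cells, and in 72.3% of LB PE, 45.9% of LB TE and 99.999% of LB EPI cells. POU5F1 was detected in 79.8% of Morula, 90.4% of EB, 83.02% of MB TE and 92.1% of MB ICM cells, and in 89.5% of LB PE, 44.1% of LB TE and 98.7% of LB EPI cells. LB TE was the class with fewest POU5F1 cells, and the share of MB TE cells with POU5F1 stayed near that of the morulae. In LB TE, with NANOG at 45.9% and both genes at 21.4%, NANOG without POU5F1 was not rare at this depth. The trophectoderm classes held less NANOG on average than the inner classes of their own day. Their median depths were 198116 reads in MB TE and 196521 in LB TE, against 132481 in MB ICM and 196981 in LB EPI.

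**Figure D4:**
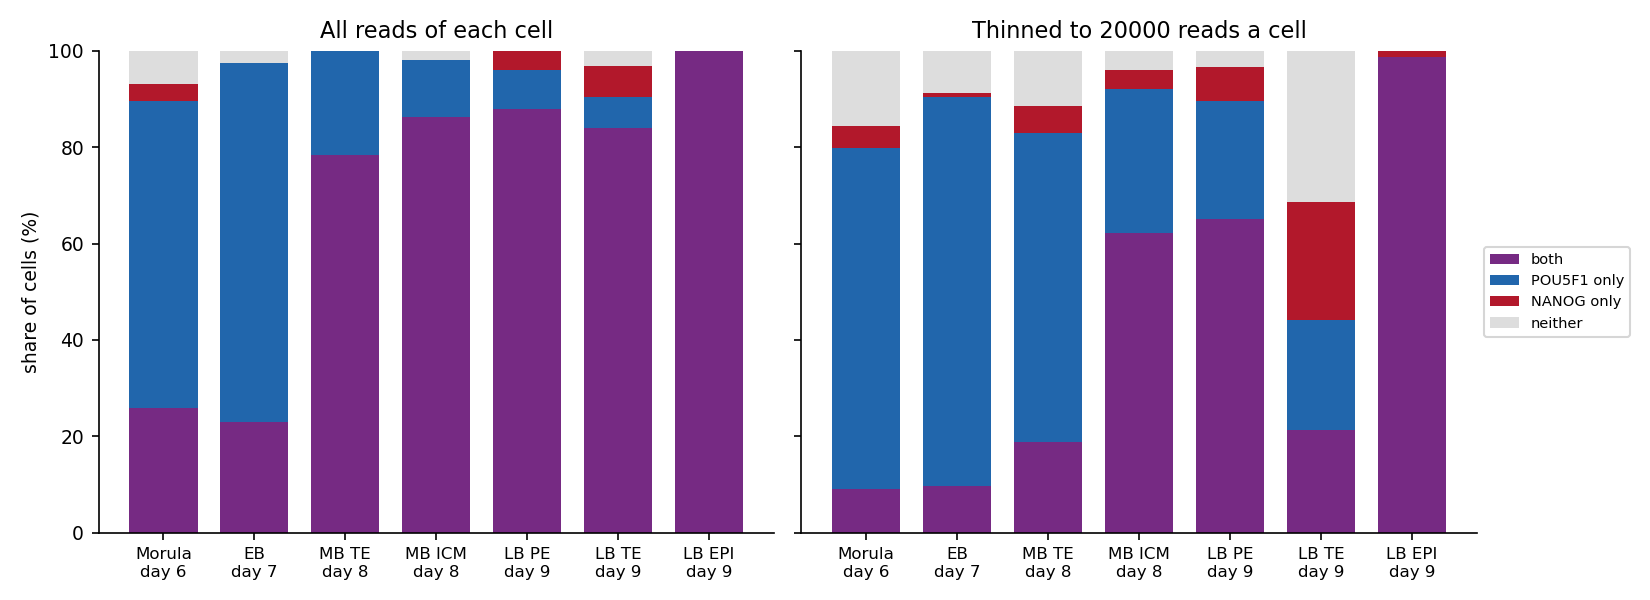
Share of cells with reads of both genes, of 1 or of neither, by class, with all reads (left) and thinned to 20000 reads a cell (right). Detection of both stays at 98.7% in LB EPI after thinning and drops to 18.8% in MB TE and 21.4% in LB TE.

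NANOG in trophectoderm cells moved with the library. In replicate 5, 9 of 9 LB TE cells had NANOG and their lowest value was 29.4 CPM, whereas in replicate 3, 18 of 21 had it, with a median of 16.6 CPM. Replicate 5 also held the most LB EPI cells, 24 against 9 in replicate 3, and its 1 MB TE cell had 59.7 CPM of NANOG. The MB TE averages of the other libraries were 11.8 to 19.6 CPM, but single cells there spread more widely. The highest MB TE cell of all was in replicate 1, at 86.1 CPM, and the next highest in that library had 38.3. The protocol mixes the amplified cDNA of cells with different barcodes, and whether reads passed between cells of a library was not tested. As a measurement, LB TE held 6.85% of the NANOG level of LB EPI in replicate 5 and 2.42% in replicate 3. POU5F1 stood at 20.6% and 8.53% in those libraries, GDF3 at 14.4% and 7.19%, TDGF1 at 8.29% and 2.70%, and SOX2 at 2.76% and 3.22%. The shares were thus unequal among these 5 epiblast genes within a library, and 4 of the 5 were larger in replicate 5, SOX2 being the other. In MB TE, POU5F1 held 80.4% and 47.6% of its MB ICM level in replicates 1 and 2, while NANOG held 9.11% and 15.2% and SOX2 9.73% and 7.86%.

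Within a class, cells varied widely in both genes. In LB EPI, NANOG ran from 125.9 CPM over a median of 885.4 to 2564, and POU5F1 from 53.9 over 254.6 to 588.0. These lowest values came from shallow cells, of 15884 reads for NANOG and 18566 for POU5F1. The next lowest were 347.8 CPM for NANOG and 97.4 for POU5F1. MB ICM cells ran from 0 over a median of 74.3 to 740.1 CPM for NANOG, which reached the range of LB EPI, and 22 of 51 exceeded the highest MB TE cell (86.1 CPM). For POU5F1 only 5 of 51 MB ICM cells exceeded the highest MB TE cell (349.1 CPM). In MB TE, POU5F1 was detected in every cell, from 13.2 over a median of 99.6 to 349.1 CPM.

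Within 6 of the 7 classes the members were only weakly related. Spearman's rho between NANOG and POU5F1 over cells was -0.03 in Morula (58 cells), -0.17 in EB (39), -0.19 in MB TE (37), 0.13 in MB ICM (51), 0.11 in LB PE (25) and 0.19 in LB TE (31), and these are not read as findings. In LB EPI (45 cells) it was -0.37, -0.47 over the 43 cells of at least 20000 reads, and -0.27 after centring each library. By library it was 0.05 in replicate 2, -0.25 in replicate 3 and -0.25 in replicate 5. Cells of a library share its depth and preparation, and in LB EPI the library with the highest NANOG, replicate 5, had the lowest POU5F1.

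Other partners were read in the same way inside LB EPI, and the pairs given are among the strongest computed there. NANOG was lower in cells with more KRT18, a keratin of simple epithelia that marks trophectoderm, with a rho of -0.73 over 45 cells, -0.61 after centring by library and -0.71 over the 43 cells of at least 20000 reads. With GATA3, a trophectoderm factor, rho was -0.55, and -0.37 after centring. KRT18 stood at 266.6 to 772.4 CPM in LB EPI libraries, far under its 6065 to 11891 CPM in LB TE libraries. POU5F1 went with SOX2 in LB EPI cells (rho 0.45, 0.46 after centring and 0.47 over the 43 deeper cells), whereas NANOG and SOX2 had a rho of -0.39 (-0.37 after centring and -0.46 over the deeper cells).

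In earlier cells the relation of POU5F1 to other genes varied by class, and the pairs given here are among the strongest computed. In Morula the rho of POU5F1 with GATA6, a factor of the hypoblast, was 0.55 over 58 cells and 0.53 after centring. It was 0.01 in EB (39 cells) and 0.49 in MB TE (37 cells). In Morula cells POU5F1 itself had a rho of 0.36 with depth. With the trophectoderm factor CDX2, POU5F1 had a rho of 0.40 in Morula (58 cells, 0.43 after centring), -0.50 in EB (39 cells, -0.45 after centring) and 0.50 in MB TE (37 cells, 0.56 after centring). In MB ICM, where NANOG and GATA6 are known from mice to part, both were detected in 41 of 51 cells, and their rho was -0.01. After thinning, 62.4% of MB ICM cells still had both, as did 70.8% of LB PE and 45.9% of LB EPI cells. The rho of NANOG with GATA6 was -0.29 in LB EPI (-0.45 after centring and -0.33 over the 43 deeper cells). In LB PE it was -0.03 (-0.28 after centring and 0.22 over the 20 cells of at least 20000 reads). Of the 25 LB PE cells, 23 had NANOG and 24 had POU5F1, and 22 had NANOG together with GATA6.

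**Figure D5:**
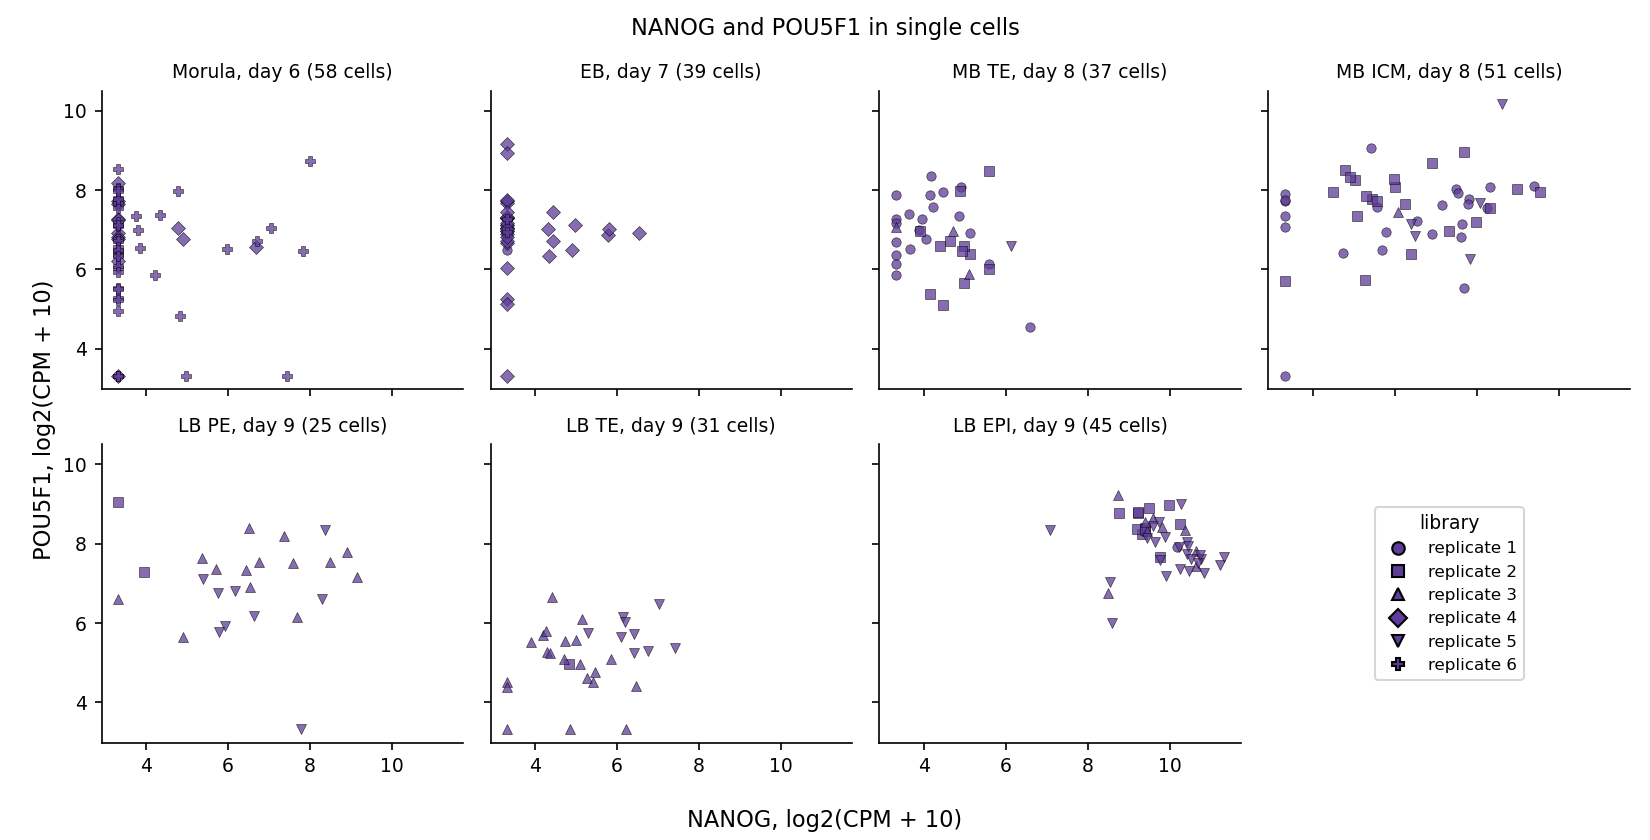
Each point is 1 cell, with NANOG on the horizontal and POU5F1 on the vertical axis, both as log2(CPM + 10), and its symbol gives the library. Most EB and Morula cells line up at a NANOG of 0, 29 of 39 and 37 of 58 with POU5F1 present, and LB EPI cells sit at high values of both.

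The genes whose averages followed each member most closely were named by Pearson's r over the 16 averages of log2(CPM + 10), among 12538 other genes. These averages share classes and libraries, and r is a description. For NANOG, the nearest genes with a symbol were FAM162A (r = 0.97), TMEM243 (0.96), MS4A8 (0.95), the caveolae protein CAV1 (0.95) and the microtubule regulator STMN1 (0.95). FAM162A averaged 300.0 ± 52.3 CPM in LB EPI (n = 3), 143.3 ± 21.6 in MB ICM (n = 3) and 67.5 in EB (n = 1). For POU5F1 they were the chromatin protein HMGA1 (0.93), the selenoprotein SELENOH (0.89), LAPTM4B (0.88), STRBP (0.86) and the RNA-binding protein HNRNPA0 (0.86). HMGA1 was lower in LB TE than in LB EPI by -1.13 (SE 0.24, adjusted p = 0.00259), at 494.1 ± 23.1 CPM (n = 2) against 1099 ± 172 (n = 3). NANOG and POU5F1 had an r of 0.62 with each other, which put POU5F1 at place 822 for NANOG and NANOG at place 423 for POU5F1. SOX2 was at place 115 for POU5F1 (r = 0.72) and 1499 for NANOG (r = 0.49).

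Their genomic neighbours were read from the gene order of a RefSeq annotation of a later cattle assembly, and none of them overlaps the member there. NANOG lies between DPPA3, a maternal factor that protects DNA methylation, with GDF3, a TGF-beta ligand, on the far side, and the glucose transporter SLC2A3, with FOXJ2 beyond it. GDF3 was called in the same direction as NANOG in the epiblast comparisons, at -2.68 in LB TE against LB EPI (SE 0.41, adjusted p = 9.28e-05), -1.95 in LB PE against LB EPI (SE 0.41, adjusted p = 0.00638) and 1.78 in LB EPI against MB ICM (SE 0.37, adjusted p = 0.00499). DPPA3 was called against the direction of NANOG at 1.86 in LB PE against LB EPI (SE 0.39, adjusted p = 0.00689) and -2.20 in LB EPI against MB ICM (SE 0.35, adjusted p = 0.000717), and in the same direction at 1.97 in LB PE against LB TE (SE 0.42, adjusted p = 0.00623). In LB TE against LB EPI it stood at -0.11 (adjusted p = 0.939) and in MB TE against MB ICM at -1.01 (adjusted p = 0.0727). SLC2A3 was called between MB TE and MB ICM, where it was higher by 1.05 (SE 0.30, adjusted p = 0.0270). FOXJ2, and TCF19 and CCHCR1 beside POU5F1, were called in none of the day 8 and day 9 comparisons. MIC1 and LOC112443864, on the other side of POU5F1, were not tested because of low values.

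Other genes of the pluripotency network, a list of 55 that includes neither member, were set beside them. Of these, 50 were in the table and 45 were tested. In MB TE against MB ICM 12 of 45 fell and 2 rose, so that 31.1% were called where 10.1% of all genes were, and the list's median change was -0.47 against -0.04 over all genes. Without replicate 2, 6 members were called in place of 14. SOX2, the partner of POU5F1, stood at -2.80 (SE 0.47, adjusted p = 0.000591). OTX2, a homeodomain factor, stood at -2.88 (SE 0.37, adjusted p = 2.59e-05). The cytokine signal transducer STAT3 fell by 1.86 and the receptor IL6R changed by -1.96, while the nuclear receptor ESRRB rose by 1.19 (SE 0.33, adjusted p = 0.0235) and TFCP2L1 by 0.93 (SE 0.28, adjusted p = 0.0392).

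In LB TE against LB EPI 22 of 45 fell and 1 rose, 51.1% of the list where 15.2% of all genes were called, with a list median of -0.84 against -0.04 over all genes. Without replicate 3, 11 were called in place of 23. The Nodal co-receptor TDGF1 fell by 4.001 (SE 0.54, adjusted p = 5.54e-05), SOX2 by 3.74 (SE 0.52, adjusted p = 6.80e-05) and the Krüppel-like factor KLF17 by 2.28 (SE 0.34, adjusted p = 6.92e-05). The T-box factor TBX3 was the 1 that rose (2.06, SE 0.38, adjusted p = 0.000641). NANOG's fall of 4.13 and POU5F1's of 2.75 thus stood beside those of SOX2 and TDGF1.

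In LB PE against LB EPI 8 fell and 5 rose, 28.9% of the list where 5.39% of all genes were called, with a median of -0.33 against -0.01 over all genes. The 13 calls became 7 without replicate 2, 5 without replicate 5 and 21 in cells of at least 20000 reads. TDGF1 fell by 2.57 (SE 0.54, adjusted p = 0.00894) and KLF17 by 2.01, while TBX3 rose by 2.59 (SE 0.38, adjusted p = 0.000257) and the ETS factor ETV5 by 1.49. SOX2 was at -1.55 and missed the threshold (adjusted p = 0.0948). Against LB TE, 6 of 45 were higher in LB PE and 0 lower, 13.3% of the list where 5.85% of all genes were called. The median was 0.69 against 0.02 over all genes. OTX2 was higher by 3.24 (SE 0.45, adjusted p = 0.000161) and SOX2 by 2.18 (adjusted p = 0.0250). The SOX2 difference was larger in replicate 3, with 178.8 CPM in LB PE against 6.97 in LB TE there, and 17.0 in LB PE against 4.56 in LB TE of replicate 5.

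In LB EPI against MB ICM 8 of 45 rose and 4 fell, 26.7% of the list where 5.1% of all genes were called, with a median of 0.31 against 0.02 over all genes. Without replicate 2, 4 were called in place of 12. Beside NANOG's rise of 2.55, TDGF1 rose by 4.23 (SE 0.49, adjusted p = 6.66e-05) and the forkhead factor FOXO1 by 3.15 (SE 0.51, adjusted p = 0.00123). DNMT3B, a DNA methyltransferase, rose by 2.36 (SE 0.51, adjusted p = 0.0136), and TBX3 fell by 1.95 (SE 0.34, adjusted p = 0.00137). SOX2, at 0.94 (SE 0.47, adjusted p = 0.324), missed the threshold as POU5F1 did. In the other comparisons few were called. In LB PE against MB ICM 1 of 45 was (2.22%, against 0.702% of all genes), and in MB TE against EB 2 were (4.44% against 0.997%), of which SOX2 fell by 3.49 (SE 0.71, adjusted p = 0.0197). In LB TE against MB TE, MB ICM against EB and EB against Morula limma called 0 of 45, where it called 0.191%, 0.175% and 0.0798% of all genes. At an unadjusted p under 0.05 the list had 3, 7 and 5 members in these comparisons, and limma-voom also called 0. In the difference between the day 9 and day 8 gaps 1 was called (2.22% against 0.367%), TDGF1 (-3.56, SE 0.73, adjusted p = 0.0385).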

How the data were processed

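PolyA RNA of single cells was primed with oligo(dT), amplified, and mixed across cell barcodes before shearing, per the labels' protocols. Reads were trimmed with Trim Galore, aligned with HISAT2 to ARS-UCD1.2, counted with featureCounts and handled in Seurat, per the submitters' processing notes. The deposited table holds the natural log of 1 plus reads per 10000 of a cell (18825 rows, 286 cells), and the second row of 1 repeated symbol was left out. The scale was undone and the values were rescaled to CPM. Recovered values were whole reads within 0.1 for 100% of values in every cell, 48628984 reads in all. The 2 cells of the annotation without values (288 in all) were left out.

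Average CPM per library and class (at least 3 cells) was fitted with limma 3.58.1 (trend, robust; R 4.3.3) on log2(CPM + 10), with the library as a random block and genes of at least 10 CPM in as many averages as the smallest class. The consensus correlation was 0.18. The replicate number names the library, which holds several classes, so same-numbered averages are paired by source. Thinning was exact (hypergeometric), and Python 3.11.15, numpy 2.4.6 and scipy 1.17.1 were used. The members and all lists were chosen with earlier results of these data known. Named genes were the 5 symbols most like each member, SOX2, up to 4 members of the list per comparison with the smallest adjusted p, and the adjacent genes. The adjacent genes, and ESRRB, TFCP2L1, DNMT3B, TBX3 and TDGF1 where outside those 4, were chosen after their values were seen. Alternatives were other pseudocounts, filters, cell minimums, scaling, limma-voom on recovered reads, no block, each library left out and other thinning depths.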

Additional observations from a re-analysis of the deposited data

How the results depend on the processing

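Over the 11 comparisons of both members, 308 values under alternatives kept their direction and their side of the threshold, 30 lost the call, 5 gained it and 3 turned sign. The calls of NANOG in MB TE against MB ICM, LB TE against LB EPI, LB PE against LB EPI and LB EPI against MB ICM, and of POU5F1 in LB TE against LB EPI, held under all 16. The causes below were not tested. For NANOG in LB PE against LB TE the call was lost with no filter (1.52), at least 1 cell per average (0.63), mean log2 values (1.14), limma-voom (1.81) and cells of at least 20000 reads (1.10). Leaving out a library gave 0.57 to 2.47. In LB PE against MB ICM it turned to 0.050 with mean log2 values and ran from -0.38 to 0.31 with a library left out. In MB ICM against EB limma-voom gave 4.24 (adjusted p = 0.102), and a pseudocount of 50 called the difference between the gaps at -1.78.

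POU5F1 in MB TE against MB ICM lost its call with no filter (-0.99), at least 5 cells (-0.88), at least 1 cell (-0.95), mean log2 values (-0.80), limma-voom (-0.74) and cells of at least 20000 reads (-0.56). POU5F1 in LB PE against LB EPI lost it with a pseudocount of 1 (-1.19), no filter (-1.14) and at least 1 cell (-0.63). In EB against Morula limma-voom gave -0.081. The difference between the gaps was called with mean log2 values (-1.98), limma-voom (-2.22) and cells of at least 20000 reads (-2.14). With a library left out POU5F1 ran from -1.35 to -0.72 in MB TE against MB ICM, from -1.45 to -0.96 in LB PE against LB EPI, from 0.97 to 2.25 in LB PE against LB TE and from -2.48 to -1.40 for the difference between the gaps.

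Without the replicate block, NANOG in LB PE against LB TE stood at 1.52 (adjusted p = 0.0669), POU5F1 in MB TE against MB ICM at -0.99 (0.0571) and in LB PE against LB EPI at -1.15 (0.0818), and no other call of the members changed.

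Both genes at 3 or more reads were found in 0.216% of MB TE, 21.5% of MB ICM, 12.3% of LB PE, 0.488% of LB TE and 83.8% of LB EPI cells. With any read counted, the share with both at 10000 reads was 40.7% in MB ICM, 40.3% in LB PE and 89.5% in LB EPI. At 40000 reads it was 36.4% in MB TE, 82.5% in MB ICM, 84.9% in LB PE, 43.6% in LB TE and 99.97% in LB EPI. Without thinning it was 25.9% in Morula, 78.4% in MB TE, 86.3% in MB ICM, 88.0% in LB PE, 83.9% in LB TE and 100% in LB EPI. With a library left out it ran between 11.4% and 42.5% in LB TE and between 98.3% and 99.2% in LB EPI.

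Of the pluripotency list 6 members were called in MB TE against MB ICM without replicate 2 (14 with all), and 11 in LB TE against LB EPI without replicate 3 (23 with all). In LB PE against LB EPI 7 were called with a pseudocount of 1, no filter or without replicate 2, 8 without the block, 5 without replicate 5 and 21 in cells of at least 20000 reads (13 with all). In LB PE against LB TE 3 were called with no filter or no block (6 with all), and in LB EPI against MB ICM 4 without replicate 2 (12 with all).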
